A study of Homo sapiens with 9 samples.

Results

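The ID genes and a core of the bone morphogenetic protein (BMP) pathway were followed in U87 cells, a human glioblastoma line. The 10 genes, found by gene symbol among the 58735 genes of the count table, were ID1, ID2, ID3, ID4, SMAD6, BMP4, BMPR1A, BMPR2, ACVR1 and GREM1. The genes were chosen by their differences in these same comparisons, ID3 and ID4 having been among the larger falls in IDH1mt and ID3 among those in C269S. The values of these 10 genes are therefore a description without a test, and tests are given among 92 other genes of the pathway. That list was also drawn up with earlier results of these data known, so its tests are not independent of them.

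RNA was sequenced from 3 groups of stably expressing U87 cells with 3 libraries each. The C269S group carried IDH1mt C269S, the mutant isocitrate dehydrogenase 1 with serine in place of a cysteine. The IDH1mt group carried the R132H mutant itself, and the PCDH group carried the vector alone. The series asks how self-palmitoylation of the mutant enzyme bears on gene expression. All groups share the U87 background with the line's own IDH1, and no group carried introduced IDH1 without the mutation. The labels give neither the number of selected lines per construct nor separate cultures for the libraries of a group. The p-values rest on library-to-library spread alone, technical or not, and an effect of the construct cannot be told apart from a difference between selected lines.

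BMP ligands bind pairs of type I and type II receptor kinases, which phosphorylate SMAD1, SMAD5 and SMAD9. These enter the nucleus with SMAD4 and switch on a small set of direct targets, chief among them the ID genes and the inhibitory SMADs, SMAD6 and SMAD7. ID proteins have a helix-loop-helix domain but no basic region, so they pair with E proteins and keep them off DNA. In neural progenitors and glioma cells they are known for holding back differentiation, and BMP signalling is known for driving astrocyte differentiation. Secreted antagonists such as gremlin 1 trap the ligands outside the cell.

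Library totals lay between 19108925 and 24803711 counts. Levels are given as CPM, counts scaled to library size with TMM factors, and differences as log2 fold changes with a standard error (SE) from 1 edgeR fit of 16874 genes. IDH1 averaged 739 ± 30.3 CPM in C269S, 677 ± 16.5 CPM in IDH1mt and 111 ± 7.97 CPM in PCDH (SD, n = 3 each), which sets PCDH apart from the mutants. The C269S libraries lay above those of IDH1mt without overlap, by 0.126 in log2 (SE 0.055). This difference did not pass (adjusted p = 0.227 in edgeR), so IDH1 does not tell the mutant labels apart. PCDH replicate 3 stood furthest from its fellows, with a chi-square per degree of freedom of 10.28 and 11.04 against PCDH replicates 1 and 2, where the other pairs within a group lay between 3.68 and 6.37. The mesenchymal glioblastoma markers VIM, CD44, NES, FN1 and TNC were all expressed. The leukocyte and microglia list summed to at most 1.52 CPM in a library, the epithelial list to at most 1.43 CPM, the astrocyte list to 2.99 to 4.45 CPM with AQP4 at 0, and the endothelial list to 6.48 to 9.49 CPM, mostly PECAM1. The oligodendrocyte list summed to 7.08 to 13.4 CPM, mostly OLIG2, and the neuronal list to 55.0 to 71.6 CPM, mostly SNAP25.

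The sequences just before the start sites of the ID genes are shown because the 4 genes did not move together. Each line holds the 250 bases before the RefSeq start site on GRCh38.p14, read 5′ to 3′ on the gene's own strand. The stretches are chr20:31605039-31605288 on the plus strand for ID1, chr2:8681806-8682055 on the plus strand for ID2, chr1:23559502-23559751 on the minus strand for ID3 and chr6:19837120-19837369 on the plus strand for ID4. Capitals mark the letters TATAAA, called the TATA box, on either strand. They also mark the core of the cAMP response element, searched as TGACG on both strands.
ID1: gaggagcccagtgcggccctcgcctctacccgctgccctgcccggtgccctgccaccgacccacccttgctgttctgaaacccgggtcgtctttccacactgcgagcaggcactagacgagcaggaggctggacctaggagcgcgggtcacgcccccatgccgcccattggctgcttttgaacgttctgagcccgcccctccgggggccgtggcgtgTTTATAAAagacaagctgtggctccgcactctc
ID2: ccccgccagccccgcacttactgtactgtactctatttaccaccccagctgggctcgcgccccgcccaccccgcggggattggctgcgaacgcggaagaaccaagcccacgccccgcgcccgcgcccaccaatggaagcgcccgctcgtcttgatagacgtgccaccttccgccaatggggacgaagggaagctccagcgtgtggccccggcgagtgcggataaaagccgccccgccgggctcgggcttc
ID3: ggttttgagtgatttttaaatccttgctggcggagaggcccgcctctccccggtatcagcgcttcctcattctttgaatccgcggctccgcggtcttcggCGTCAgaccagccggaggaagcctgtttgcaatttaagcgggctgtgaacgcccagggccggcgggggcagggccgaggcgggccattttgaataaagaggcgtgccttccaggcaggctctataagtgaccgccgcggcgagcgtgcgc
ID4: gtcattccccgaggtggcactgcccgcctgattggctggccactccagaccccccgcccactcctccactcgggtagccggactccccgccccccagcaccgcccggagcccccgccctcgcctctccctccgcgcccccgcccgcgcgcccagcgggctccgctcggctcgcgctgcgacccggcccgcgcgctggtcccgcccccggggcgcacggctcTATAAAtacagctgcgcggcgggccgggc
The RefSeq start of ID2 lies 3211 bases, and that of ID3 293 bases, inside the gene's first base in the count table. The ID2 and ID3 windows thus lie wholly within the gene as counted.
Of 27305 promoters of this length, 11.1% held the TATA box and 21.7% the cAMP core. The TATA box stood in the ID1 window, where overlapping matches on both strands began 33 and 31 bases before the start, and in the ID4 window, 29 bases before it. The ID2 and ID3 windows held no exact match to it. The cAMP core was found in the ID3 window alone of the 4, with a match that began 150 bases before the start and overlapped a SMAD box. The SMAD box GTCT, searched on both strands, was present in all 4 windows, 3 times in ID1, 2 times in ID2 and ID3 and 1 time in ID4, and in 77.6% of all promoters. The GC-rich SMAD site GGCGCC, present in 16.1% of all promoters, was in none of the 4 windows. GC content was 66.0%, 69.2%, 62.0% and 78.8% from ID1 to ID4, against a median of 58% over all promoters. The E-box, CANNTG with N for any base, was in the ID2 and ID4 windows, with matches that began 205 and 21 bases before the start. It was in 62.2% of all promoters. The windows thus did not divide ID3 and ID4, the genes lower in IDH1mt, from ID1 and ID2 by a shared match to these motifs.

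ID3 and ID4 were lowest in IDH1mt, highest in PCDH and in between in C269S. ID3 (ENSG00000117318, chromosome 1, 23557918 to 23559794 on the minus strand, GRCh38) encodes an inhibitor of E proteins. ID3 had 68.0, 67.9 and 78.8 CPM in C269S, 47.1, 44.8 and 50.8 CPM in IDH1mt, and 110, 114 and 105 CPM in PCDH. The 3 groups did not overlap. The log2 difference in ID3 was 0.59 (SE 0.07) for C269S against IDH1mt, -1.21 (SE 0.07) for IDH1mt against PCDH and -0.61 (SE 0.07) for C269S against PCDH. ID4 (ENSG00000172201, chromosome 6, 19837386 to 19840684 on the plus strand), a relative best known from neural progenitors, was much scarcer. ID4 had 9.24, 6.79 and 7.72 CPM in C269S, 4.17, 4.28 and 5.20 CPM in IDH1mt, and 11.2, 11 and 11.8 CPM in PCDH. Again no library of one group reached into another. For ID4 the log2 difference was 0.81 (SE 0.16) for C269S against IDH1mt, -1.33 (SE 0.15) for IDH1mt against PCDH and -0.52 (SE 0.15) for C269S against PCDH. ID4 rested on 97 to 267 reads per library, against 947 to 2711 for ID3, and its SE was larger.

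ID1 and ID2 ran the other way, highest in IDH1mt, with smaller differences. The share of counts from mitochondrial genes was also highest in IDH1mt, at 3.718% to 3.802%, against 3.18% to 3.35% in C269S and 2.92% to 3.35% in PCDH. It set IDH1mt apart without overlap, as ID1 to ID4 did, and its part in their differences was not tested. ID1 (ENSG00000125968, chromosome 20, 31605283 to 31606515 on the plus strand), the ID gene most used as a readout of BMP signalling, had 247, 239 and 258 CPM in C269S, 287, 279 and 296 CPM in IDH1mt, and 248, 243 and 270 CPM in PCDH. The IDH1mt libraries lay above all others, and C269S and PCDH overlapped. ID1 differed by a log2 value of -0.21 (SE 0.06) for C269S against IDH1mt, 0.18 (SE 0.06) for IDH1mt against PCDH and -0.03 (SE 0.06) for C269S against PCDH. ID2 (ENSG00000115738, chromosome 2, 8678845 to 8684453 on the plus strand), which can also bind the retinoblastoma protein, had 37.9, 36.8 and 36.4 CPM in C269S, 51.2, 49.0 and 46.8 CPM in IDH1mt, and 39.7, 40.1 and 42.4 CPM in PCDH. Here the 3 groups did not overlap, C269S being lowest. For ID2 the log2 differences were -0.40 (SE 0.08) for C269S against IDH1mt, 0.27 (SE 0.08) for IDH1mt against PCDH and -0.14 (SE 0.08) for C269S against PCDH. Exons of the antisense gene ID2-AS1 share 38 bases with ID2, and its 446 reads over the 9 libraries stood beside 8256 for ID2.

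**Figure D1:**
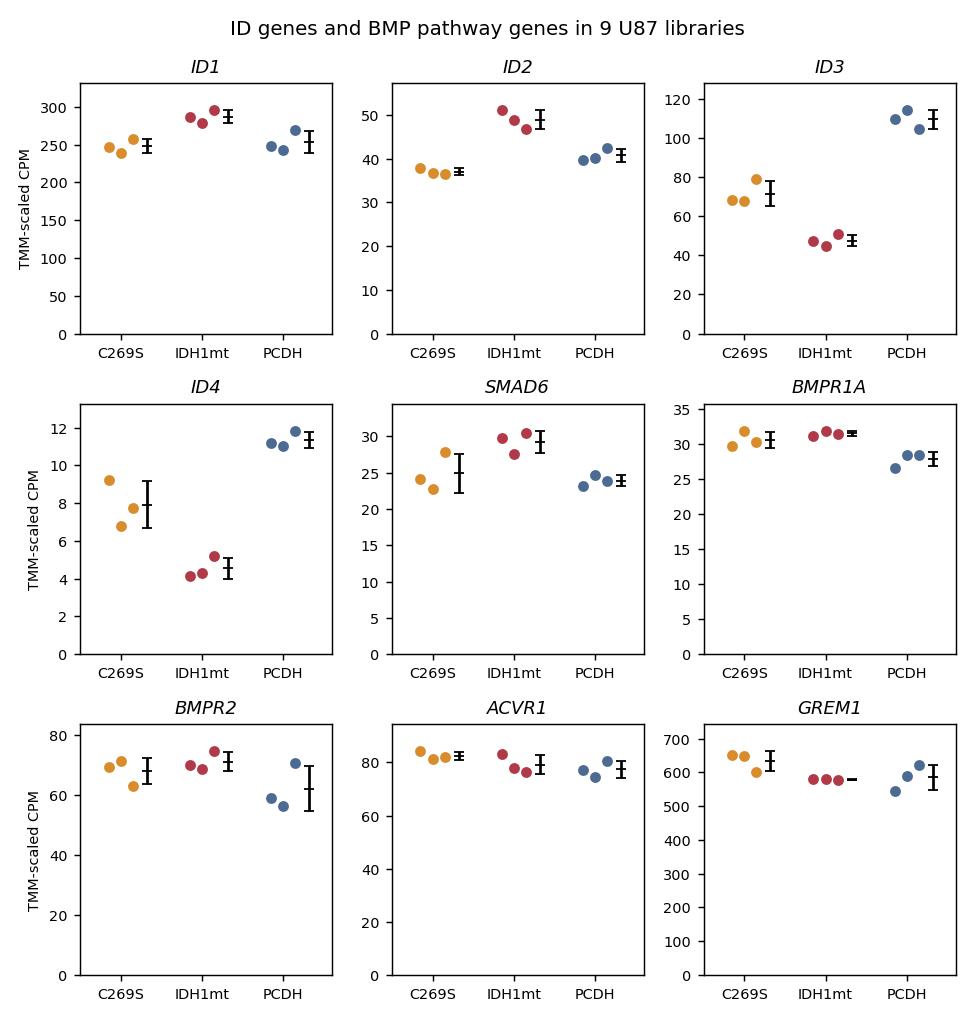
TMM-scaled CPM (y axes, each from 0) of the 9 measurable genes in C269S, IDH1mt and PCDH libraries (x axes). Points are single libraries and bars the mean ± SD of 3; ID3 averaged 71.6 CPM in C269S, 47.6 CPM in IDH1mt and 110 CPM in PCDH, while ID1 and ID2 were highest in IDH1mt.

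Per length, ID1 made up most of the ID transcripts in every library, so differences in ID3 showed in the mix more than in the total. On the deposited FPKM scale, which corrects for length, the 4 ID genes summed to 258, 250 and 271 in C269S, 282, 274 and 290 in IDH1mt, and 282, 281 and 299 in PCDH. The C269S sums lay below the others, and those of IDH1mt and PCDH overlapped. ID3 and ID4 together made up 16.1%, 16.2% and 17.3% of this sum in C269S, 9.87%, 9.71% and 10.4% in IDH1mt, and 23.1%, 24.1% and 21.0% in PCDH. No group overlapped another in this share, which does not depend on how libraries are scaled to each other. The ID1 share was 77.0 ± 0.333% in C269S, 82.2 ± 0.183% in IDH1mt and 70.9 ± 1.58% in PCDH, and the ID2 share was 6.44 ± 0.333%, 7.84 ± 0.493% and 6.37 ± 0.0507% in the same order (SD, n = 3 each).

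**Figure D2:**
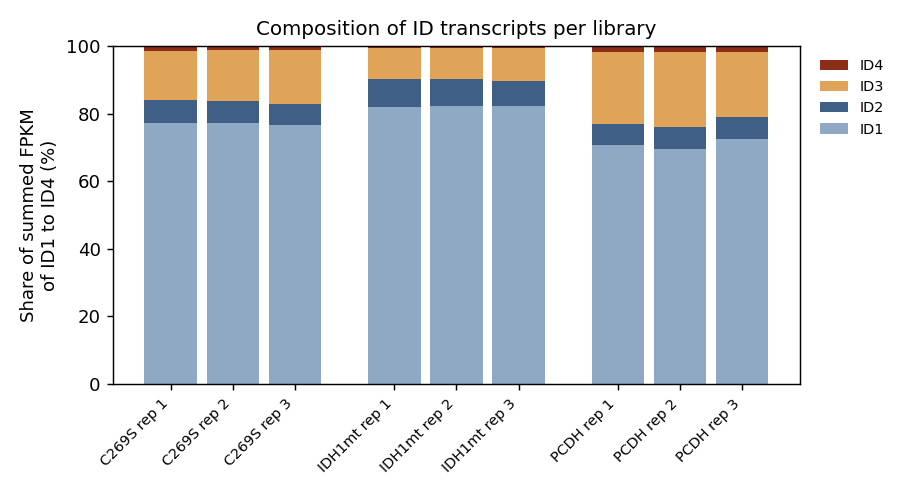
Share of the summed FPKM of ID1 to ID4 (y axis, %) taken by each gene in the 9 libraries (x axis, grouped as C269S, IDH1mt and PCDH). The ID3 segment averaged 15.2% in C269S, 9.33% in IDH1mt and 21.1% in PCDH, and ID1 filled most of each bar.

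SMAD6 (ENSG00000137834, chromosome 15, 66702228 to 66782848 on the plus strand), an inhibitory SMAD that BMP signalling induces as a brake on itself, had 24.1, 22.7 and 27.9 CPM in C269S, 29.8, 27.5 and 30.4 CPM in IDH1mt, and 23.1, 24.6 and 23.9 CPM in PCDH. IDH1mt lay above PCDH without overlap, whereas the highest C269S library reached above the lowest of IDH1mt. The log2 difference in SMAD6 was -0.23 (SE 0.09) for C269S against IDH1mt, 0.29 (SE 0.09) for IDH1mt against PCDH and 0.06 (SE 0.09) for C269S against PCDH. SMAD6 thus averaged highest in IDH1mt, as ID1 and ID2 did, whereas ID3 and ID4 averaged lowest there.

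The ligand BMP4 (ENSG00000125378, chromosome 14, 53949736 to 53958761 on the minus strand) was nearly silent. It had 1, 1 and 0 reads in C269S, 0 in each IDH1mt library, and 0, 0 and 2 reads in PCDH, too few for the fit or for a fold change. With BMP4 left out, 9 of the 10 genes passed the filter on low counts.

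The receptors differed less between groups than ID3 and ID4 did. BMPR1A, a type I receptor (ENSG00000107779, chromosome 10, 86756601 to 86932838 on the plus strand), had 29.7, 31.9 and 30.2 CPM in C269S, 31.1, 31.8 and 31.4 CPM in IDH1mt, and 26.6, 28.3 and 28.4 CPM in PCDH. PCDH lay below the others, with log2 differences of -0.04 (SE 0.08) for C269S against IDH1mt, 0.18 (SE 0.08) for IDH1mt against PCDH and 0.14 (SE 0.09) for C269S against PCDH. BMPR1AP1 and BMPR1AP2, processed pseudogenes of BMPR1A, had 19 and 4 reads over all libraries, against 5820 for BMPR1A itself. BMPR2, the type II BMP receptor (ENSG00000204217, chromosome 2, 202376936 to 202567751 on the plus strand), had 69.6, 71.6 and 63.1 CPM in C269S, 70.2, 68.7 and 74.7 CPM in IDH1mt, and 59.2, 56.6 and 70.8 CPM in PCDH. Its groups overlapped in every comparison, and PCDH replicate 3 lay well above the other PCDH libraries. The log2 difference in BMPR2 for IDH1mt against PCDH was 0.19 (SE 0.08) with all libraries and 0.30 without PCDH replicate 3. ACVR1, a type I receptor also called ALK2 (ENSG00000115170, chromosome 2, 157736444 to 157875862 on the minus strand), had 84.2, 81.2 and 82.1 CPM in C269S, 83.3, 77.9 and 76.4 CPM in IDH1mt, and 77.1, 74.5 and 80.7 CPM in PCDH. C269S lay just above PCDH, and IDH1mt overlapped both. Its log2 differences were 0.06, 0.03 and 0.09 (SE 0.07 each) for C269S against IDH1mt, IDH1mt against PCDH and C269S against PCDH.

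GREM1, gremlin 1, a secreted antagonist that binds BMP2, BMP4 and BMP7 (ENSG00000166923, chromosome 15, 32717974 to 32745107 on the plus strand), was abundant. It had 651, 650 and 600 CPM in C269S, 579, 579 and 577 CPM in IDH1mt, and 544, 590 and 620 CPM in PCDH. C269S lay above IDH1mt without overlap, and the PCDH libraries overlapped both groups. GREM1 showed log2 differences of 0.13 (SE 0.05) for C269S against IDH1mt, -0.02 (SE 0.05) for IDH1mt against PCDH and 0.12 (SE 0.05) for C269S against PCDH. The antagonist was therefore expressed at a high level in libraries where the ligand BMP4 was near 0. BMP2, another ligand that gremlin 1 binds, averaged 10.5, 11.8 and 10.5 CPM in C269S, IDH1mt and PCDH.

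Ordered per length by mean FPKM, ID1 led in every group, at 200 ± 7.60 in C269S, 232 ± 6.64 in IDH1mt and 204 ± 11.7 in PCDH. ID3 came next in PCDH at 60.4 ± 2.64 FPKM, ahead of GREM1 at 39.7 ± 2.70 FPKM. In IDH1mt the order was turned, with ID3 at 26.3 ± 1.65 FPKM below GREM1 at 39.4 ± 0.0985 FPKM, and in C269S the pair overlapped, with ID3 at 39.6 ± 3.48 FPKM and GREM1 at 43.1 ± 1.95 FPKM. ACVR1 and ID2 followed at 20.6 and 16.7 FPKM in C269S, 19.7 and 22.1 FPKM in IDH1mt, and 19.2 and 18.3 FPKM in PCDH, where they overlapped. BMPR2 stood at 5.69, 5.95 and 5.18 FPKM in C269S, IDH1mt and PCDH. ID4, SMAD6 and BMPR1A formed the low end, with ID4 at 3.36 FPKM in C269S, 1.93 FPKM in IDH1mt and 4.80 FPKM in PCDH, against 2.66, 2.74 and 2.41 FPKM for BMPR1A. ID4 thus ranked above SMAD6 and BMPR1A in PCDH and below both in IDH1mt. The gene length behind these values is the union of all annotated exons, 14606 bases for GREM1 and 1233 for ID1, so a gene with long rarely used exons is understated.

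In the edgeR fit, 2 of the 9 measurable genes were called higher and 2 lower in C269S than in IDH1mt, where 4.9% of all genes were called, 2.29% higher and 2.61% lower. The calls were ID3 and ID4 as higher and ID1 and ID2 as lower. In IDH1mt against PCDH, ID1, ID2 and SMAD6 were called higher and ID3 and ID4 lower, with 14.1% of all genes called, 7.18% higher and 6.9% lower. In C269S against PCDH, ID3 was called lower and the other 8 did not pass, with 1.42% of all genes called, 0.883% higher and 0.533% lower. These comparisons were in view when the genes were listed, so nothing is read from the counts. The 17 alternative settings refit these same libraries, so a call that held is no separate support. The calls of ID3 and ID4 in C269S against IDH1mt and in IDH1mt against PCDH, and of ID2 in C269S against IDH1mt, held under all 17. ID1 kept its call in C269S against IDH1mt in 11 of 17 settings, losing it without C269S replicate 1 or 2 or IDH1mt replicate 1 or 3 and with limma on FPKM at either pseudocount. In IDH1mt against PCDH, both ID1 and SMAD6 lost theirs without IDH1mt replicate 1 or 3 or PCDH replicate 1 or 2, and ID2 without IDH1mt replicate 1 or 2 or PCDH replicate 1 or 2. ID1 and SMAD6 also lost their calls there with library size alone, with no filter on low counts and with limma at either pseudocount, so that ID1 was called in 9 and SMAD6 in 8 of the 17 settings. BMPR2 was called in 1 of the 17 settings, without PCDH replicate 3. The call of ID3 in C269S against PCDH held in 16 of 17 and was lost with limma on log2(FPKM + 0.1). Libraries did not overlap for 5 of the 9 genes in C269S against IDH1mt, 6 in IDH1mt against PCDH and 5 in C269S against PCDH, beside 23.6% of all genes (11.8% higher and 11.8% lower), 29.2% (14.3% higher and 14.9% lower) and 15.2% (7.62% higher and 7.57% lower). IDH1mt against PCDH and C269S against PCDH share the PCDH libraries, and C269S against IDH1mt shares libraries with both.

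**Figure D3:**
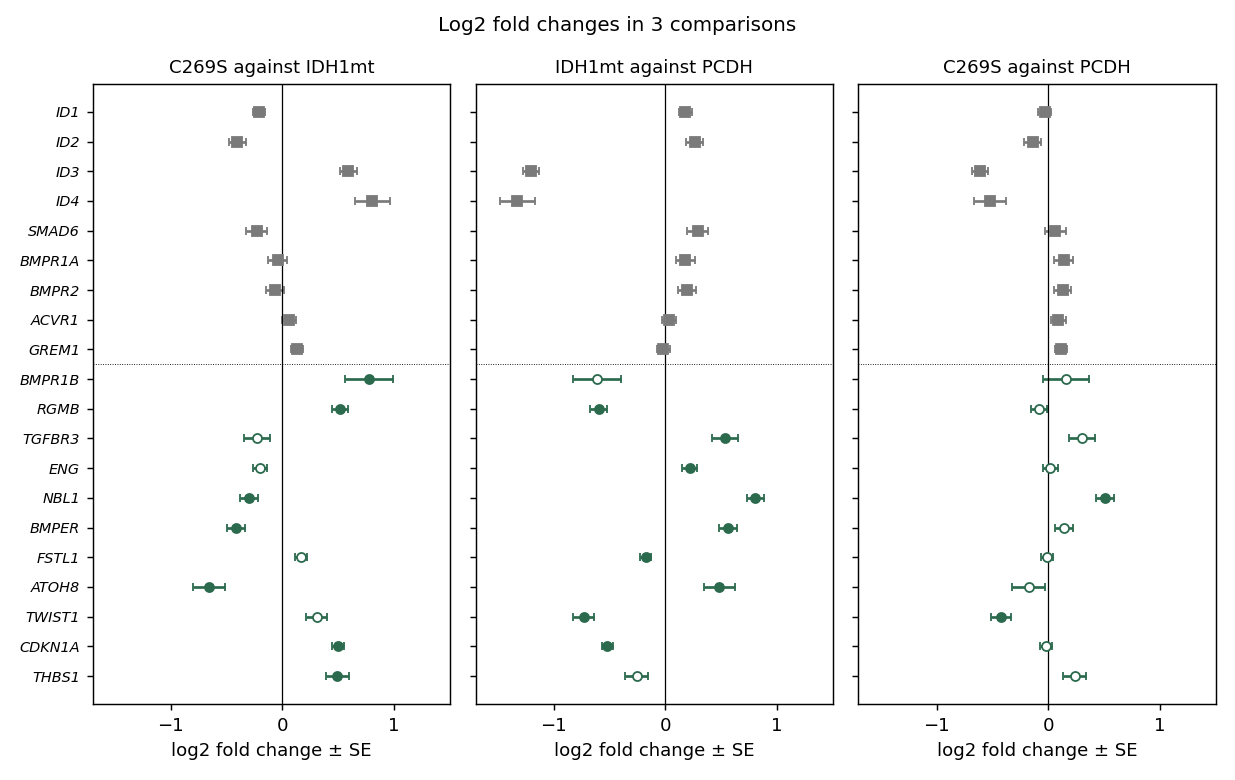
Log2 fold change ± SE (x axes) of the 9 measurable genes (grey squares, above the dotted line, no test) and of the other pathway genes named in the text as called (green circles, filled where the adjusted p was under 0.05) in C269S against IDH1mt, IDH1mt against PCDH and C269S against PCDH. ID3 and ID4 lay at -1.21 and -1.33 in IDH1mt against PCDH, farther from 0 than any other gene plotted there.

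The rest of the pathway was examined as a list of 92 ligands, receptors, SMADs, antagonists, proteases, targets, E proteins and genes that ID proteins are known to hold down, of which 58 had enough reads to be tested. In C269S against IDH1mt, 5 rose, 3 fell and 50 did not pass in edgeR's quasi-likelihood test, adjusted over all 16874 genes. That is 13.8% of the list, itself drawn up with earlier results known, beside 4.9% of all genes. The list's median log2 fold change was -0.04, against 0.00 over all genes.

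CDKN1A, the cell-cycle inhibitor p21, whose promoter E proteins can activate, had 367, 368 and 390 CPM in C269S and 264, 264 and 268 CPM in IDH1mt. It rose in C269S without overlap (0.50 ± 0.05 in log2 fold change ± SE, edgeR adjusted p = 5.5e-08). THBS1, thrombospondin 1, an inhibitor of vessel growth that Id1 represses in mouse, had 55.6, 59.9 and 60.3 CPM in C269S and 39.1, 43.9 and 42.1 CPM in IDH1mt (0.49 ± 0.10 in log2 fold change ± SE, edgeR adjusted p = 0.00414). Both rose in C269S, where ID3 and ID4 were higher and ID1 and ID2 lower than in IDH1mt.

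Among receptors, RGMB, a membrane-anchored BMP co-receptor, averaged 52.3 ± 1.20 CPM in C269S and 36.5 ± 0.636 CPM in IDH1mt (SD, n = 3 each) and rose (0.52 ± 0.08 in log2 fold change ± SE, edgeR adjusted p = 1.7e-05). BMPR1B, a type I BMP receptor, averaged 4.91 ± 0.841 CPM and 2.86 ± 0.368 CPM in the same groups and rose (0.78 ± 0.22 in log2 fold change ± SE, edgeR adjusted p = 0.0296). BMPER, a secreted BMP-binding modulator, averaged 35.0 ± 0.944 CPM in C269S and 46.6 ± 0.504 CPM in IDH1mt, and NBL1, an antagonist of the DAN family, 62.2 ± 4.18 CPM and 76.5 ± 1.20 CPM. Both fell, by 0.42 and 0.30 on the log2 scale (adjusted p = 0.000855 and 0.0193 in edgeR). ATOH8, a transcription factor that BMP signalling induces, averaged 9.84 ± 0.164 CPM in C269S and 15.6 ± 2.06 CPM in IDH1mt and fell (-0.66 ± 0.14 in log2 fold change ± SE, edgeR adjusted p = 0.00352). Of the 9 tested genes listed as other BMP targets, the other 8 did not pass. That is 11.1% called, beside 4.9% of all genes. With single libraries left out, NBL1 lost its call without C269S replicate 1 or 2 or any IDH1mt replicate. BMPR1B lost its call without C269S replicate 1 or 2 or IDH1mt replicate 1 or 3, and ATOH8 without IDH1mt replicate 3. The list had 5 calls without IDH1mt replicate 1 or 3. With limma at either pseudocount, THBS1, NBL1, BMPR1B and ATOH8 lost their calls. CDKN1A, RGMB and BMPER kept theirs in all 17 settings.

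**Figure D4:**
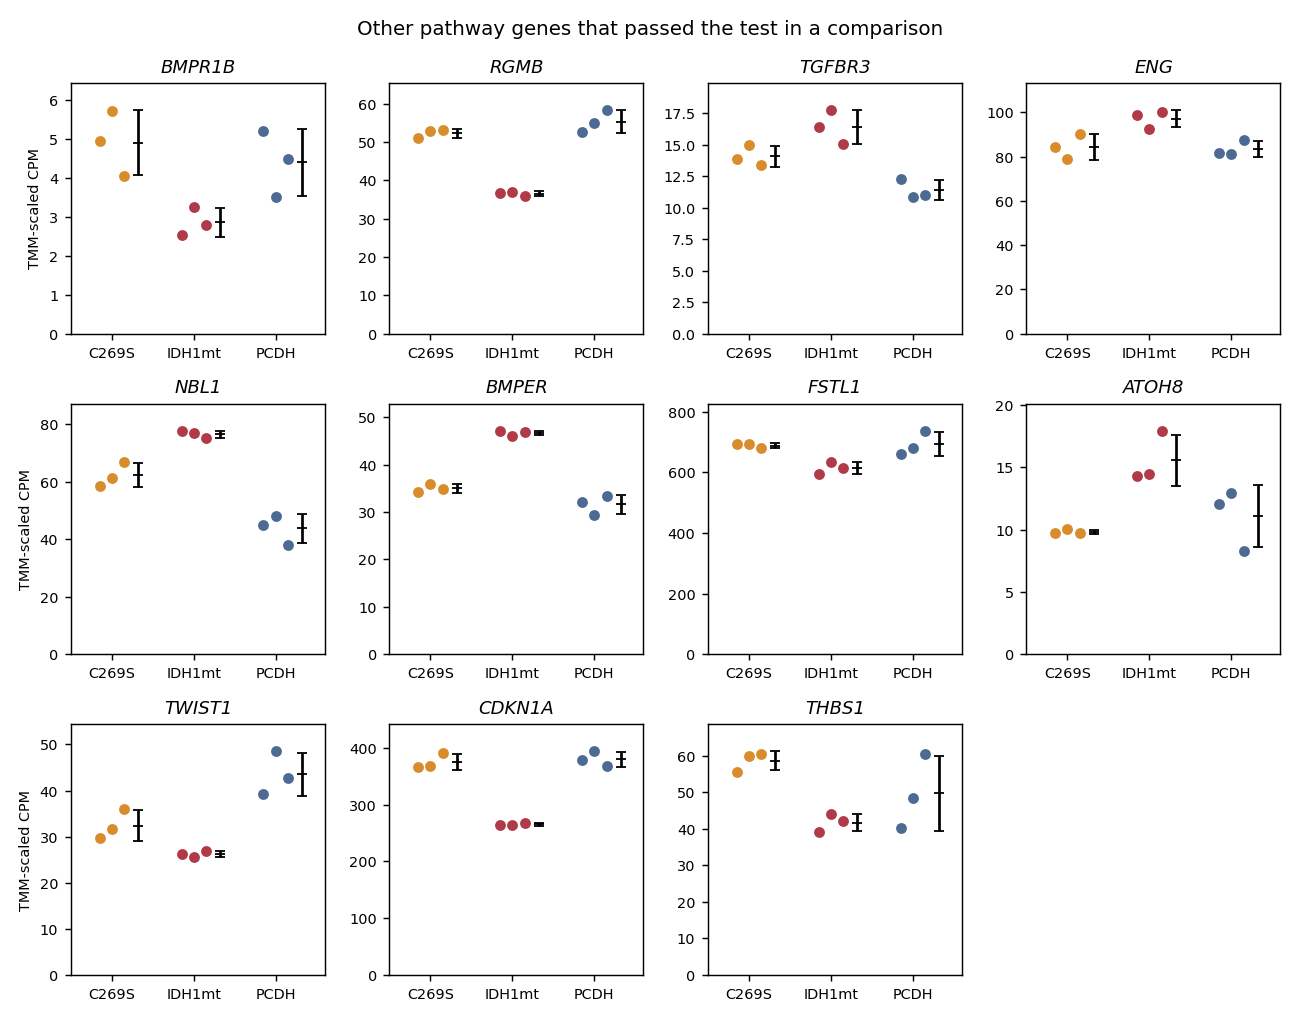
TMM-scaled CPM (y axes, each from 0) of the other named pathway genes that passed the test in at least 1 comparison, by group (x axes). Points are single libraries and bars the mean ± SD of 3; CDKN1A and RGMB were lowest in IDH1mt, and NBL1 and BMPER highest there.

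In IDH1mt against PCDH, 5 genes of the list rose, 5 fell and 48 did not pass. This 17.2% stood close to the 14.1% of all genes called. The list's median log2 fold change was 0.08, against -0.01 over all genes. Secreted modulators moved in both directions. NBL1 averaged 76.5 ± 1.20 CPM in IDH1mt and 43.7 ± 5.09 CPM in PCDH (SD, n = 3 each), a rise of 1.75-fold (0.81 ± 0.08 in log2 fold change ± SE, edgeR adjusted p = 5.6e-09). BMPER averaged 46.6 ± 0.504 CPM in IDH1mt and 31.6 ± 1.98 CPM in PCDH and rose 1.48-fold (adjusted p = 5e-06 in edgeR). FSTL1, a secreted follistatin-like protein, averaged 614 ± 19 CPM and 693 ± 39.7 CPM in the same groups and fell by 0.18 on the log2 scale (adjusted p = 0.0198 in edgeR).

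The co-receptors were split as well. RGMB averaged 36.5 ± 0.636 CPM in IDH1mt and 55.3 ± 2.95 CPM in PCDH and fell by 0.60 on the log2 scale (SE 0.08, adjusted p = 5.7e-07 in edgeR). TGFBR3, betaglycan, a co-receptor for TGF-beta and BMP ligands, averaged 16.4 ± 1.33 CPM in IDH1mt and 11.4 ± 0.787 CPM in PCDH and rose 1.45-fold (adjusted p = 0.00139 in edgeR). ENG, endoglin, a co-receptor best known from endothelium, averaged 97.1 ± 3.95 CPM and 83.4 ± 3.49 CPM in the same groups and rose 1.16-fold (adjusted p = 0.0258 in edgeR). Of the endothelial markers, PECAM1, VWF and CDH5 averaged 6.84, 1.11 and 0.429 CPM in IDH1mt and 5.76, 0.719 and 0.205 CPM in PCDH. CLDN5 went the other way, at 0.110 CPM in IDH1mt and 0.139 CPM in PCDH. The part of endothelial transcripts in the ENG value was not tested.

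ATOH8, a BMP target, averaged 15.6 ± 2.06 CPM in IDH1mt and 11.1 ± 2.48 CPM in PCDH and rose 1.40-fold (adjusted p = 0.017 in edgeR). It was 1 of 9 tested genes listed as other BMP targets, and the other 8 did not pass. That is 11.1% called, beside 14.1% of all genes. TWIST1, a bHLH factor of mesenchymal cells that pairs with E proteins, averaged 26.2 ± 0.740 CPM in IDH1mt and 43.5 ± 4.67 CPM in PCDH and fell by 0.73 on the log2 scale (SE 0.09, adjusted p = 6.3e-07 in edgeR). CDKN1A averaged 265 ± 2.23 CPM in IDH1mt and 380 ± 13.0 CPM in PCDH and fell by 0.52 on the log2 scale (SE 0.05, adjusted p = 1.1e-08 in edgeR). CDKN1A thus stood lower in IDH1mt than in either other group. THBS1 averaged 41.7 ± 2.44 CPM in IDH1mt and 49.7 ± 10.2 CPM in PCDH and did not pass in this comparison. Calls were lost without single libraries for ATOH8 (IDH1mt replicate 3, PCDH replicate 3), FSTL1 (IDH1mt replicate 1 or 3, PCDH replicate 3) and ENG (IDH1mt replicate 1 or 3, PCDH replicate 1 or 2). ENG also lost its call with library size alone (adjusted p = 0.0743 in edgeR). With limma at either pseudocount, ATOH8, FSTL1 and ENG lost their calls.

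In C269S against PCDH, 2 genes of the list passed, which is 3.45% beside 1.42% of all genes. NBL1 averaged 62.2 ± 4.18 CPM in C269S and 43.7 ± 5.09 CPM in PCDH and rose 1.42-fold (0.51 ± 0.08 in log2 fold change ± SE, edgeR adjusted p = 0.000219). TWIST1 averaged 32.4 ± 3.31 CPM in C269S and 43.5 ± 4.67 CPM in PCDH and fell by 0.43 on the log2 scale (SE 0.09, adjusted p = 0.00977 in edgeR), a call lost without C269S replicate 1 or 2 or PCDH replicate 2. The list's median log2 fold change was 0.005, against -0.01 over all genes. PCDH replicate 3 weighed on this comparison, since without it 903 genes were called in place of 239, and 5 of the list in place of 2.

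The 4 ligands and the 9 SMADs or SMAD regulators of the list that were tested held no call in any comparison. Of all genes, 4.9% were called in C269S against IDH1mt, 14.1% in IDH1mt against PCDH and 1.42% in C269S against PCDH. With so few genes tested, nothing is read from the absence of calls. The 4 ligands with enough reads were BMP2, BMP6, BMP8B and GDF5. BMP6, the most abundant of them per length, averaged 11.4 ± 0.875 FPKM in C269S, 10.5 ± 0.478 FPKM in IDH1mt and 9.59 ± 1.34 FPKM in PCDH. On the CPM scale its log2 fold change was 0.11 (SE 0.10) in C269S against IDH1mt and 0.13 (SE 0.10) in IDH1mt against PCDH. SMAD5, which relays the BMP signal, averaged 96.5 ± 6.71 CPM in C269S, 98.6 ± 5.47 CPM in IDH1mt and 90.4 ± 12.5 CPM in PCDH, and SMAD1 12.4 ± 1.66, 11.7 ± 1.007 and 12.6 ± 1.14 CPM. SMAD7, the other inhibitory SMAD, averaged 43.6 ± 2.65 CPM in C269S, 49.1 ± 1.64 CPM in IDH1mt and 42.2 ± 1.02 CPM in PCDH. It missed the threshold narrowly in IDH1mt against PCDH (0.22 ± 0.08 in log2 fold change ± SE, edgeR adjusted p = 0.0529). The receptor BMPR1B missed it as narrowly there in the other direction (-0.62 ± 0.22 in log2 fold change ± SE, edgeR adjusted p = 0.0526).

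The E proteins, the direct partners of ID proteins, held close levels. TCF3 averaged 110 ± 6.91 CPM in C269S, 107 ± 4.35 CPM in IDH1mt and 110 ± 5.14 CPM in PCDH, TCF4 49.3 ± 2.14, 48.8 ± 1.37 and 49.8 ± 2.83 CPM, and TCF12 78.8 ± 4.86, 72.8 ± 3.14 and 78.5 ± 9.12 CPM. For TCF3 the log2 fold change lay between -0.17 and 0.08 in IDH1mt against PCDH, and for TCF4 between -0.18 and 0.12 (estimate with its 95% interval). A change of the size seen for ID3 lay outside both intervals.

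Profiles nearest to ID3 and ID4 were sought among 11600 other protein-coding genes whose log2 CPM averaged 1 or more, by the root mean square difference of centred log2 CPM over the 9 libraries. ADCY8, an adenylyl cyclase, was nearest to ID3 at 0.10 log2 units, averaging 76.0 ± 4.04 CPM in C269S, 56.9 ± 2.85 CPM in IDH1mt and 116 ± 4.35 CPM in PCDH. VGF, a neuropeptide precursor, CRISPLD1, ZNRD1, a subunit of RNA polymerase I, and MTMR1, a lipid phosphatase, followed at 0.13 to 0.15. MTMR1 was nearest to ID4 at 0.13 log2 units, averaging 9.98 ± 0.860 CPM in C269S, 5.995 ± 0.533 CPM in IDH1mt and 13.6 ± 0.927 CPM in PCDH. ZNRD1, RSPO3, an agonist of Wnt signalling, ACSS3, an acyl-CoA synthetase, and SFRP2, a secreted modulator of Wnt signalling, followed at 0.17 to 0.19. MTMR1 and ZNRD1 were in both lists, and ID3 and ID4 stood 0.16 apart. The profiles are descriptions over libraries that share their groups.

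**Figure D5:**
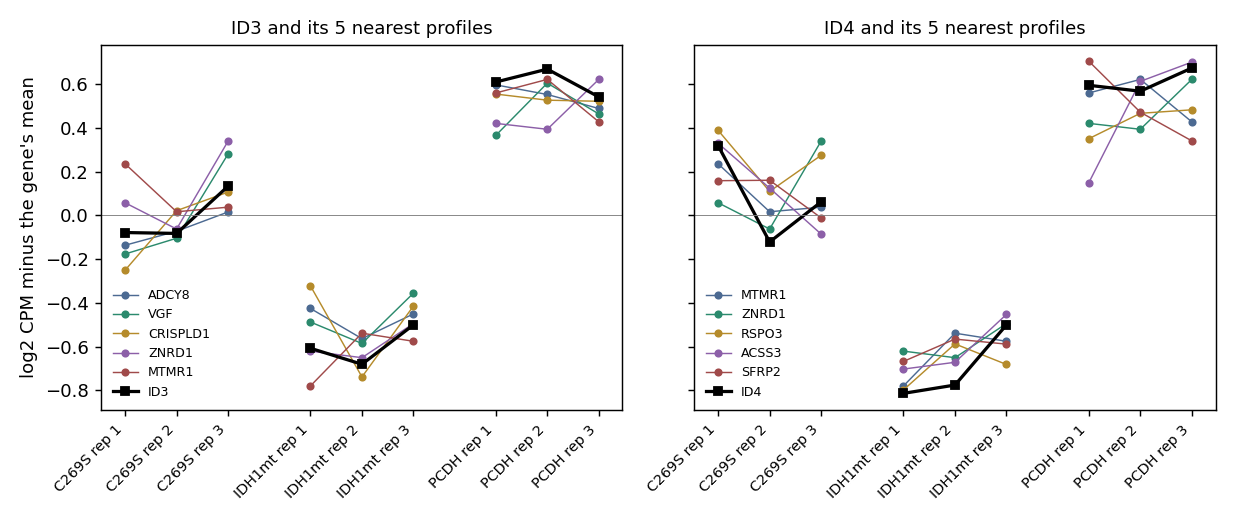
Log2 CPM minus each gene's own mean (y axis) in the 9 libraries (x axis, grouped as C269S, IDH1mt and PCDH) for ID3 and ID4 (black) and their 5 nearest profiles (colours). Lines join libraries of 1 group. ADCY8 ran closest to ID3, at a root mean square difference of 0.10 log2 units, and MTMR1 closest to ID4, at 0.13.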

How the data were processed

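Whole-number read counts per gene were deposited for 9 libraries. HISAT2 (2.0.5) and featureCounts (1.5.0-p3) are listed in the submitters' processing notes, with the builds GRCh38 and hg38; the strand setting and RNA selection are not given in the sources used here. Reads of overlapping antisense genes therefore cannot be told apart. A second deposited table holds FPKM values, which the authors scaled by gene length and library. By name, column CS was taken as C269S, mt as IDH1mt and Control as PCDH. Gene coordinates of the 103 genes examined were the same in GENCODE release 29, and promoter sequences came from RefSeq (GRCh38.p14), where all 4 ID genes were found by symbol.

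Genes were filtered with filterByExpr, scaled by TMM and tested with edgeR version 4.0.16 (quasi-likelihood, robust) under R version 4.3.3, with 9 libraries in 1 fit, a mean per group and no covariate. P-values were adjusted by Benjamini and Hochberg over 16874 genes, and calls were made at an adjusted p under 0.05. SE is the absolute log2 fold change over the square root of F. Steps were tested on counts simulated for IDH1mt against PCDH. Of 100 genes changed 1.5-fold 66 were called, and of 100 changed 2-fold 87, with 12 false calls. The pass mark for this check was lowered after its first run. Genes that did not pass may therefore include missed differences. An exact two-sided permutation test of 3 against 3 libraries cannot go below 0.1.

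Members and lists were chosen with earlier results of these data known. Of the other pathway genes, every one called was named, up to 12 per comparison, except 1 that is counted but not reported here; genes described as not passing were picked for their role. Alternatives were DESeq2 size factors, library size alone, no filter, the 6 libraries of a comparison, a replicate block, DESeq2 version 1.42.0, limma version 3.58.1 on log2 of FPKM plus 1 or plus 0.1, and each library left out in turn.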

Additional observations from a re-analysis of the deposited data

How the results depend on the processing

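The 50 log2 fold changes of single genes were recomputed under 17 settings. In 768 of 850 values the side of the threshold was kept, 81 lost the call, 1 gained it and no called gene changed sign. The 768 include genes that were not called in edgeR and stayed so, such as BMPR1A, ACVR1 and GREM1. They therefore overstate how firmly the calls held. Uncalled genes near 0 did change sign, GREM1 (-0.07 to 0.03) and ACVR1 (-0.01 to 0.06) in IDH1mt against PCDH and ID1 (-0.06 to 0.01) and SMAD6 (-0.02 to 0.13) in C269S against PCDH among them. With limma on log2(FPKM + 1), 384, 1485 and 45 genes were called in C269S against IDH1mt, IDH1mt against PCDH and C269S against PCDH, and with log2(FPKM + 0.1) 239, 1154 and 11, against 827, 2375 and 239 in edgeR. Of the other pathway genes, 3 were called in C269S against IDH1mt with either pseudocount, and 0 in C269S against PCDH, where edgeR and DESeq2 called 2; at an unadjusted p under 0.05 limma had 7 and 6 there, edgeR 7 and DESeq2 7. The 6 libraries of C269S against PCDH alone gave 145 genes. The cause of these differences was not tested. Leaving out single libraries gave 450 to 1244 genes in C269S against IDH1mt and 103 to 903 in C269S against PCDH, the highest both without PCDH replicate 3; for the other pathway genes it gave 5 to 11 and 1 to 5. Library size alone moved the share of higher calls to 60.1% from 46.8% in C269S against IDH1mt and to 35.2% from 51% in IDH1mt against PCDH. Same-numbered libraries did not deviate together (correlations -0.087 to 0.056, with 2 of 9 libraries closest to their own number); with the replicate number as a block, 605, 1987 and 172 genes were called in the same 3 comparisons, 7, 10 and 2 of them other pathway genes, and the calls of BMPR1B in C269S against IDH1mt (adjusted p = 0.0501) and SMAD6 in IDH1mt against PCDH were lost. Intervals and counts at this depth cover counting error and library spread only, and genes with few reads, such as BMPR1B, carry wide errors.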

Other observations

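Parts of the pathway had too few reads to follow. CDKN2A and CDKN2B, cell-cycle inhibitors on the list of genes held down by ID proteins, had 0 reads in all 9 libraries. Of the 14 other ligands listed, 4 passed the filter on low counts; BMP7, one of the ligands that gremlin 1 binds, had 1, 2 and 2 reads in C269S, 4, 1 and 7 in IDH1mt, and 3, 1 and 0 in PCDH. The antagonists NOG and CHRD, noggin and chordin, were also scarce, with 9 to 30 and 4 to 16 reads per library. GREM1, with 116277 reads over the 9 libraries, was far above them.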
